A study of Rattus norvegicus with 6 samples.

Results

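Leucine, isoleucine and valine, the branched-chain amino acids (BCAA), are burned in heart muscle by a short mitochondrial pathway, and 10 genes of that pathway are described here in whole hearts of rats. The genes are Bcat2, Bckdha, Bckdhb, Dbt, Bckdk, Ppm1k, Ivd, Mccc1, Mccc2 and Hibadh. They were chosen by name, 10 of 15037 genes with a symbol on the array, and each had 1 row in the table, so no row had to be preferred. The 3 groups of 2 Clariom S Rat microarrays each were compared. TAC-R hearts had been released from TAC, TAC hearts were under it, and normal hearts carried no TAC. TAC is a narrowing of the transverse aorta by a silk thread tied over a blunt needle, which loads the left ventricle. All groups are labelled as whole heart of Sprague-Dawley rats, and the surgical protocol names males of 10 weeks. Some control rats of that protocol had surgery with no thread tied, and whether the normal hearts were theirs is unclear. No source used here gives the time under TAC or after release. Nothing says that the 2 arrays of a group came from separate animals, so the p-values reflect array-to-array spread only, and that spread may be technical.

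In the first step of the pathway a transaminase moves the amino group to a common acceptor and leaves a branched-chain keto acid. The branched-chain keto acid dehydrogenase complex then removes the carboxyl group in a step that cannot be reversed and that sets the pace of the whole pathway. A kinase switches the complex off by phosphorylating its E1 alpha subunit, and a phosphatase switches it on again. Beyond the complex the 3 amino acids take separate routes, of which leucine ends in acetyl-CoA and acetoacetate and valine in a precursor of succinyl-CoA. Lower expression of this pathway and a build-up of its keto acids have been described in failing hearts of mice and people.

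The values are log2 signals, and a difference of 1 is a doubling. Differences were tested with limma, a linear model that shares information on spread across rows, and a gene passed at a p under 0.05 after adjustment over all rows of a comparison. Array medians lay between 5.31 and 5.39, and correlations between arrays across rows ran from 0.9913 to 0.9926 within groups and from 0.9882 to 0.9908 between groups. The cardiomyocyte markers Actc1, Mb, Myl3 and Pln were at the upper limit of the scale on all 6 arrays. One field of the labels, on extraction, describes fibroblasts in culture, unlike the fields that name whole heart. All 10 genes lay above the 95th percentile of the negative control rows on all 6 arrays, so none of their differences is one between background signals. The mean log2 signal of the 10 genes was 13.22 and 13.32 on the TAC-R arrays, 13.07 and 13.10 on the TAC arrays and 13.00 and 13.06 on the normal arrays. Over the 6207 rows whose mean passed the negative controls, the same mean was 10.96 and 10.99 on the TAC-R arrays, 10.99 and 10.97 on the TAC arrays and 10.93 and 10.86 on the normal arrays.

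The transaminase gene Bcat2 encodes the mitochondrial enzyme that starts BCAA breakdown in muscle. Its log2 signal was 11.90 and 11.99 on the TAC-R arrays, 11.84 and 11.79 on the TAC arrays, and 11.33 and 11.79 on the normal arrays. Normal replicate 1 stood apart below the other 5 arrays, which lay within a narrow band, and the TAC-R arrays were the highest. Its level on the TAC arrays differed from that on the normal arrays by 0.26 ± 0.23 log2 units (SE, limma, adjusted p = 0.736), and by 0.03 without normal replicate 1.

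The E1 alpha subunit gene Bckdha, whose protein carries the phosphorylation sites, had the largest difference of the 10 genes between TAC-R and TAC arrays. Its log2 signal was 10.41 and 10.44 on the TAC-R arrays, 9.41 and 9.56 on the TAC arrays, and 9.89 and 9.94 on the normal arrays. No groups overlapped: TAC-R lay highest, normal in between and TAC lowest, and the 2 arrays of a group stood close together. The difference of the TAC-R from the TAC mean was 0.94 ± 0.21 log2 units, or 1.92-fold, with a 95% interval from 0.48 to 1.41. It did not pass over all rows in limma's test (adjusted p = 0.132). It passed in 3 other fits of the same values, at an adjusted p = 0.0276 with an intensity trend in the moderation, 0.0214 without rows under the negative controls' 95th percentile, and 0.0472 without rows under the median of row means. Over all alternatives the adjusted p ran up to 0.453, the value without TAC replicate 1.

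The partner subunit E1 beta, encoded by Bckdhb, did not show that order. Its log2 signal was 12.61 and 12.91 on the TAC-R arrays, 13.02 and 12.90 on the TAC arrays, and 12.96 and 12.67 on the normal arrays, and all 3 groups overlapped. Dbt encodes the E2 core to which the other subunits bind. Its log2 signal was 15.85 and 15.99 on the TAC-R arrays, 15.95 and 15.92 on the TAC arrays, and 15.72 and 15.78 on the normal arrays, so that both normal arrays lay under the other 4. Its difference of the TAC from the normal mean was 0.19 ± 0.21 log2 units (adjusted p = 0.793).

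The kinase gene Bckdk, whose protein switches the complex off, was highest on the TAC-R arrays. Signals on the log2 scale were 14.65 and 14.22 on the TAC-R arrays, 14.05 and 13.97 on the TAC arrays, and 13.77 and 13.51 on the normal arrays. The 3 groups did not overlap, and TAC lay between the others. The difference of the TAC-R from the normal mean was 0.79 ± 0.24 log2 units, or 1.73-fold, with a 95% interval from 0.25 to 1.33, and did not pass (limma, adjusted p = 0.314). It passed narrowly with an intensity trend (adjusted p = 0.0489), and without TAC-R replicate 1, the brighter array, the difference was 0.58.

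The phosphatase gene Ppm1k, whose protein switches the complex on, had the widest spread within a group. On the log2 scale it had 15.58 and 16.24 on the TAC-R arrays, 16.04 and 15.95 on the TAC arrays, and 15.84 and 15.97 on the normal arrays. The 2 TAC-R arrays enclosed the other 4. Bckdk and Ppm1k were thus highest on different TAC-R arrays, the kinase on replicate 1 and the phosphatase on replicate 2.

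**Figure D1:**
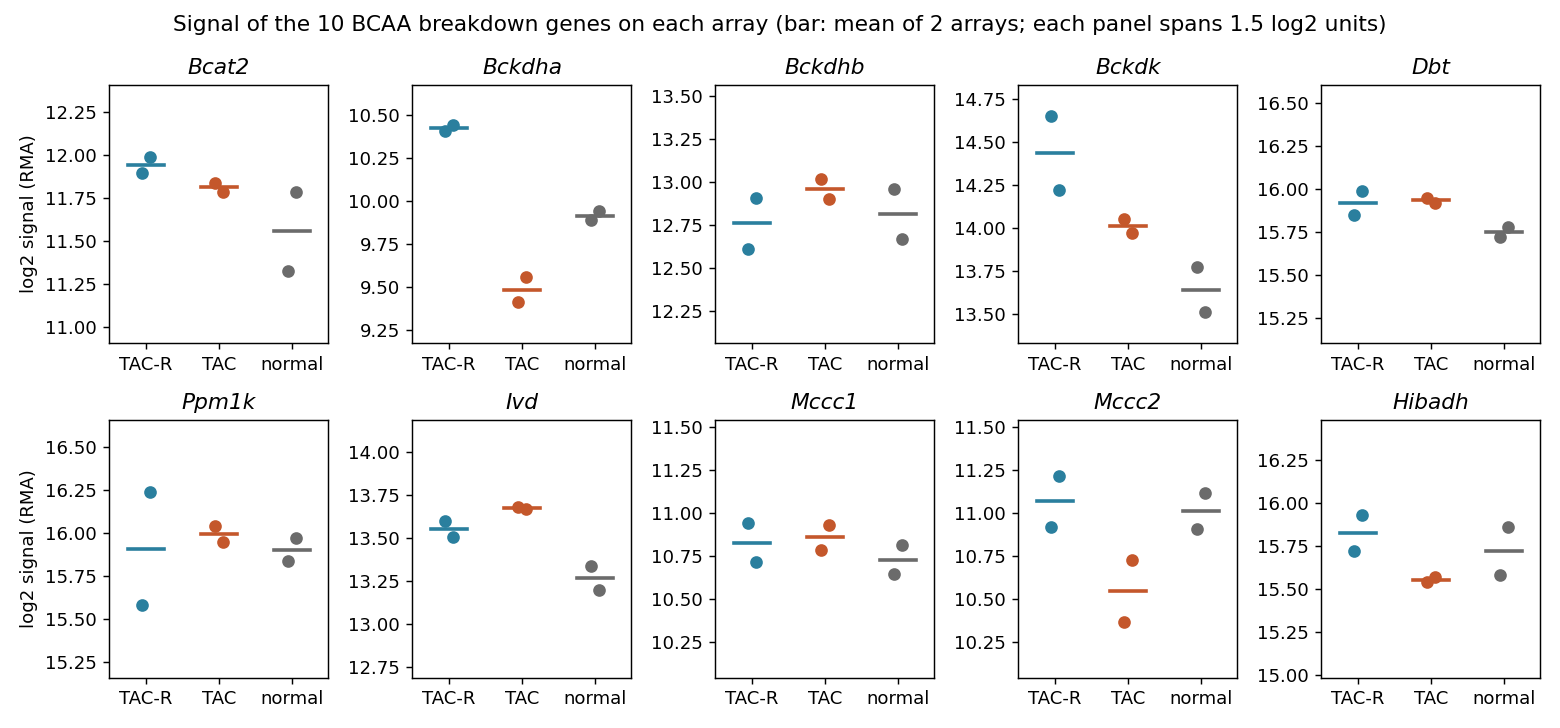
Log2 signal of each of the 10 genes (vertical axis, separate for each panel but of equal span) on the TAC-R, TAC and normal arrays; points are arrays and bars are means of 2 arrays. Bckdha separates all groups, with TAC-R at 10.43 and TAC at 9.48 on average, whereas the 2 TAC-R arrays of Ppm1k enclose all others.

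On the leucine branch, Ivd encodes isovaleryl-CoA dehydrogenase, which oxidises the product of the complex. It had log2 signals of 13.60 and 13.51 on the TAC-R arrays, 13.68 and 13.67 on the TAC arrays, and 13.34 and 13.20 on the normal arrays. Both groups that had undergone TAC lay above the normal arrays, by 0.40 ± 0.21 log2 units for TAC (adjusted p = 0.537) and 0.28 ± 0.21 for TAC-R (limma, adjusted p = 0.668). Mccc1 and Mccc2 encode the biotin-bearing and the carboxyl-transferring subunit of methylcrotonyl-CoA carboxylase, which acts on the product of Ivd. Mccc1 had a log2 signal of 10.94 and 10.71 on the TAC-R arrays, 10.78 and 10.93 on the TAC arrays, and 10.64 and 10.81 on the normal arrays, and its groups overlapped throughout. Mccc2 had a log2 signal of 10.92 and 11.22 on the TAC-R arrays, 10.37 and 10.73 on the TAC arrays, and 10.91 and 11.12 on the normal arrays. Both TAC arrays of Mccc2 lay below the other 4, by 0.46 ± 0.24 log2 units under the normal mean and by 0.52 ± 0.24 under the TAC-R mean (limma, adjusted p = 0.539 and 0.476).

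On the valine branch, Hibadh encodes 3-hydroxyisobutyrate dehydrogenase, which makes methylmalonate semialdehyde. Log2 signals were 15.72 and 15.93 on the TAC-R arrays, 15.54 and 15.57 on the TAC arrays, and 15.58 and 15.86 on the normal arrays. The TAC arrays were the lowest, and normal replicate 1 lay almost level with them. The difference of the TAC-R from the TAC mean was 0.27 ± 0.22 log2 units (limma, adjusted p = 0.718).

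The comparison of TAC with normal hearts asked how the pathway stood under load. Of the 10 genes 0 passed, against 0.254% of 23188 rows, with 0 at an unadjusted p under 0.05, which 10.3% of rows had. The TAC arrays lay wholly above the normal arrays for Bcat2, Bckdk, Dbt and Ivd and wholly below them for Bckdha, Mccc2 and Hibadh. For Bcat2 the separation was slight, since TAC replicate 2 and normal replicate 2 both rounded to 11.79. Without normal replicate 1 its difference was 0.03. With Bcat2 counted, 4 lay above, against 21.9% of all rows, and 3 below, against 21.3%. Of the 6207 rows above the negative controls, 2001 lay wholly above and 1090 wholly below. The 7 genes without overlap compare with 43.3% of all rows and 49.8% of the rows above the negative controls. The median of the 10 differences was 0.14, and their median size was 0.22. That median was 0.04 without normal replicate 1 and 0.09 with quantile normalization. Over all rows the median difference was 0.00 and the median size 0.23, and over the rows above the negative controls these were 0.08 and 0.20. Every 95% interval of the 10 genes, not adjusted for the number of rows, included 0 here. The lowest end was 0.50-fold, for Mccc2, and the highest 1.86-fold, for Bckdk.

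The comparison of TAC-R with TAC hearts asked how release from the load changed the pathway. Of the 10 genes 0 passed, against 0.431% of rows, and 1, Bckdha, had an unadjusted p under 0.05, against 11.0% of rows. The TAC-R arrays lay above the TAC arrays for Bcat2, Bckdha, Bckdk, Mccc2 and Hibadh and below them for Ivd. That is 5 above, against 20.1% of all rows, and 1 below, against 20.4%. Of the 6207 rows above the negative controls, 1510 lay wholly above and 1492 wholly below. The 6 genes without overlap compare with 40.5% of all rows and 48.4% of the rows above the negative controls. The median difference was 0.06 and the median size 0.16, against 0.00 and 0.23 over all rows. Without TAC-R replicate 1 the median difference was 0.19. Of the 95% intervals, the lowest end was 0.61-fold, for Bckdhb, and the highest 2.66-fold, for Bckdha. This comparison and the one above share the TAC arrays, so opposite signs in them, as for Bckdha, Mccc2 and Hibadh, are not independent of each other.

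The comparison of TAC-R with normal hearts asked how far the released hearts stood from hearts without TAC. Of the 10 genes 0 passed, against 0.0906% of rows, and 2, Bckdha and Bckdk, had an unadjusted p under 0.05, against 10.7% of rows. Bckdha differed by 0.51 ± 0.21 log2 units (limma, adjusted p = 0.433), with both TAC-R arrays above both normal arrays. The TAC-R arrays lay above the normal arrays for Bcat2, Bckdha, Bckdk, Dbt and Ivd and below them for 0 genes, against 20.6% of all rows above and 20.3% below. Of the 6207 rows above the negative controls, 1852 lay wholly above and 1013 wholly below. The 5 genes without overlap compare with 40.9% of all rows and 46.2% of the rows above the negative controls. The median difference was 0.14, against 0.00 over all rows and 0.09 over the rows above the negative controls. It was 0.21 without normal replicate 2 and 0.24 without TAC-R replicate 1. Bckdhb, Ppm1k and Mccc2 had the smallest differences, of -0.05, 0.01 and 0.06, with 95% intervals that reached at most 1.51-fold upward and 0.67-fold downward.

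**Figure D2:**
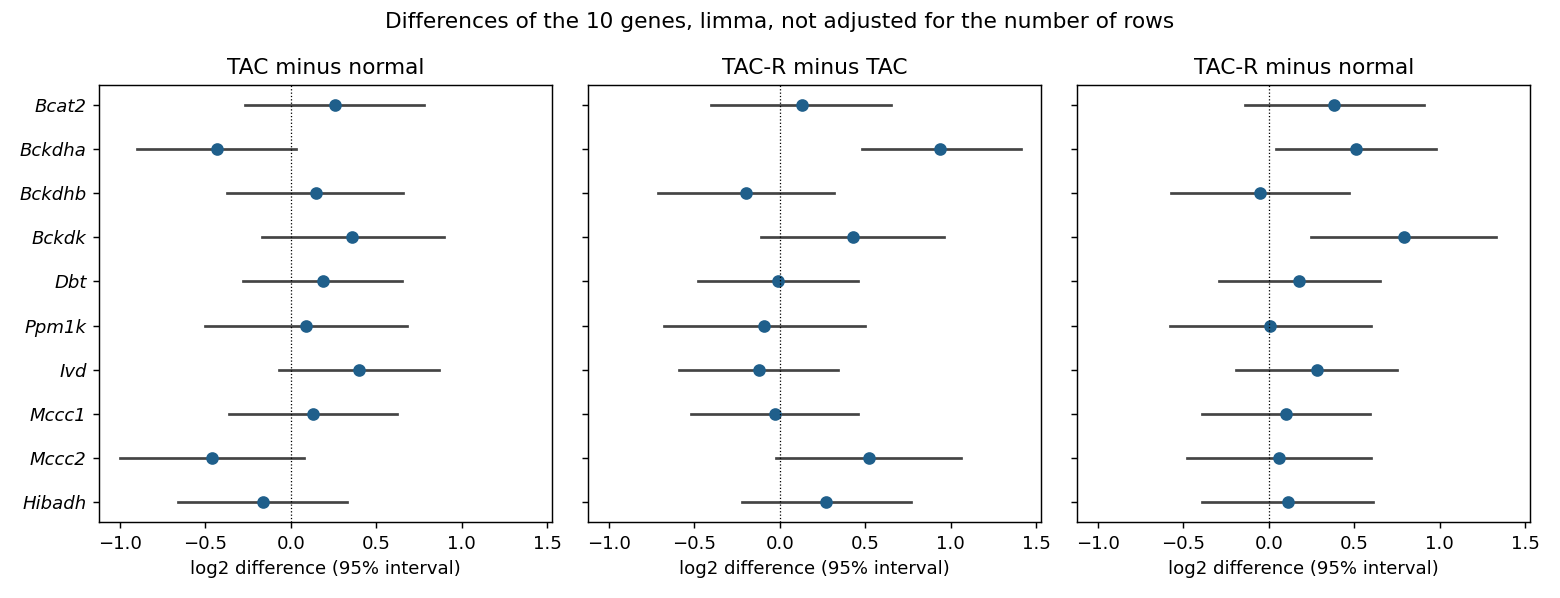
Log2 differences of the 10 genes in the 3 comparisons (horizontal axis) with 95% intervals from limma, not adjusted for the number of rows. Only Bckdha in TAC-R minus TAC, and Bckdha and Bckdk in TAC-R minus normal, have intervals that leave out 0, and none passed after adjustment.

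Partners that act together were also set against each other within each array, for 3 pairs. These differences depend on how each probe set responds, so only their shift between groups is read, and 2 arrays against 2 cannot give an exact two-sided permutation p under 0.33. Bckdha minus Bckdhb, the 2 subunits of E1, was -2.21 and -2.47 log2 units on the TAC-R arrays, -3.61 and -3.34 on the TAC arrays, and -3.07 and -2.72 on the normal arrays. The groups did not overlap, and the shift of the TAC-R from the TAC mean was 1.14. Most of it was Bckdha's own difference, 0.94, while Bckdhb differed by -0.20 with overlapping groups. The pair is thus not evidence separate from Bckdha, and no share over other gene pairs was computed. Bckdk minus Ppm1k, the kinase against the phosphatase, was -0.93 and -2.02 on the TAC-R arrays, -2.00 and -1.98 on the TAC arrays, and -2.06 and -2.45 on the normal arrays. The shift of 0.51 for TAC-R over TAC came from TAC-R replicate 1 alone, since replicate 2 lay just under both TAC arrays. Mccc1 minus Mccc2, the 2 carboxylase subunits, was 0.02 and -0.51 on the TAC-R arrays, 0.40 and 0.19 on the TAC arrays, and -0.27 and -0.32 on the normal arrays, with TAC above all others.

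**Figure D3:**
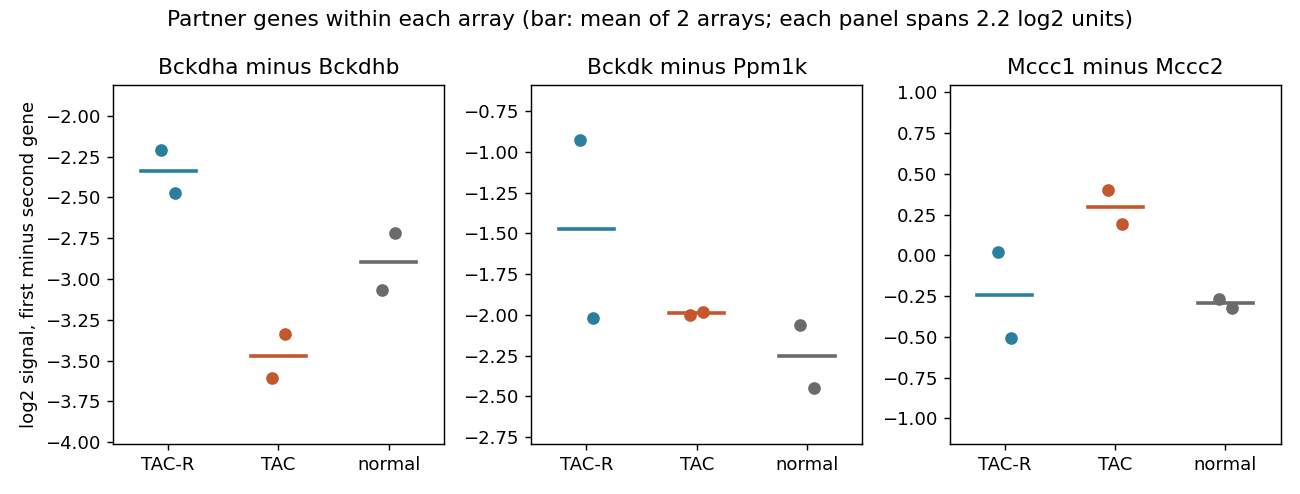
Within-array log2 difference of partner genes (vertical axis) on the TAC-R, TAC and normal arrays; points are arrays and bars are means of 2 arrays. E1 alpha over E1 beta is highest on the TAC-R arrays at a mean of -2.34 and lowest on the TAC arrays at -3.48, and the kinase over the phosphatase is high on 1 TAC-R array only.

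The 7 lists of related genes, with 88 measured genes in all, give the surroundings of the 10. In none of the 3 comparisons did any of the 88 pass in limma's test. At an unadjusted p under 0.05 were 8 for TAC against normal, against 10.3% of all rows. There were 6 for TAC-R against TAC, against 11.0%, and 6 for TAC-R against normal, against 10.7%. With an intensity trend, 2 genes passed for TAC against normal, Acadsb and Hadh, where 170 of 23188 rows passed. For TAC-R against TAC 1 passed, Hadh, where 344 rows did, and for TAC-R against normal 1, Acadsb, where 156 rows did. Of the 88 genes, 17 lay under the 95th percentile of the negative controls on all arrays. Of 17 other enzymes of BCAA and propionate breakdown, the median difference was 0.10 for TAC against normal, -0.01 for TAC-R against TAC and 0.03 for TAC-R against normal.

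Acadsb, the short and branched-chain acyl-CoA dehydrogenase of the isoleucine route, had the largest difference of these enzymes for TAC against normal. Log2 signals were 13.29 and 13.91 on the TAC-R arrays, 13.70 and 13.48 on the TAC arrays, and 12.74 and 12.45 on the normal arrays. Both groups that had undergone TAC lay above the normal arrays, by 1.00 ± 0.27 log2 units for TAC (adjusted p = 0.272) and 1.01 ± 0.27 for TAC-R (limma, adjusted p = 0.281). Each passed with an intensity trend (adjusted p = 0.039), which is the lowest of all alternatives, the highest being 0.716 for TAC and 0.698 for TAC-R. Hadh, a mitochondrial 3-hydroxyacyl-CoA dehydrogenase known mainly from fatty acid oxidation, had log2 signals of 17.73 and 17.62 on the TAC-R arrays, 18.19 and 18.08 on the TAC arrays, and 17.62 and 17.51 on the normal arrays. Both TAC arrays lay above the other 4, with differences of 0.57 ± 0.21 for TAC against normal and -0.46 ± 0.21 for TAC-R against TAC (limma, adjusted p = 0.413 and 0.465). With the trend these had an adjusted p of 0.0102 and 0.0245, the lowest of all alternatives, the highest being 0.79 and 0.75. Ivd, the acyl-CoA dehydrogenase of the leucine route, also had both of these groups above normal, with smaller differences.

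Hibch, the valine enzyme that acts just before Hibadh, had a log2 signal of 11.67 and 11.83 on the TAC-R arrays, 11.09 and 10.98 on the TAC arrays, and 11.34 and 10.87 on the normal arrays. Both TAC-R arrays were above the other 4, by 0.72 ± 0.24 log2 units over the TAC mean (limma, adjusted p = 0.303). Pccb, a subunit of the propionyl-CoA carboxylase that receives isoleucine and valine carbon, had 11.37 and 10.97 on the TAC-R arrays, 11.78 and 11.56 on the TAC arrays, and 11.25 and 11.22 on the normal arrays. Its difference of the TAC-R from the TAC mean was -0.50 ± 0.23 (adjusted p = 0.472). Mcee, the epimerase that follows it, differed by -0.49 ± 0.22 for TAC against normal (limma, adjusted p = 0.498). Dld, the E3 subunit that the complex shares with pyruvate and oxoglutarate dehydrogenase, differed by -0.21 ± 0.23 for TAC against normal and by 0.25 ± 0.23 for TAC-R against TAC (limma, adjusted p = 0.794 and 0.756).

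Of 8 genes for uptake, mitochondrial import and cytosolic transamination, only Slc3a2 and Slc25a44 passed the negative controls' 95th percentile on all 6 arrays. The list's median difference for TAC against normal, 0.42, thus rests mostly on signals under that percentile, and no direction is read from it. Slc3a2, the heavy chain of the membrane transporters, had log2 signals of 11.35 and 10.94 on the TAC-R arrays, 11.21 and 10.82 on the TAC arrays, and 10.49 and 10.57 on the normal arrays. Slc25a44, the mitochondrial BCAA carrier, differed by only 0.01 ± 0.24 there and by 0.21 ± 0.24 for TAC-R against TAC (limma, adjusted p = 0.993 and 0.803). Slc7a8, a neutral amino acid transporter of the cell membrane, differed by 1.19 ± 0.31 for TAC against normal and by -0.94 ± 0.31 for TAC-R against TAC (limma, adjusted p = 0.257 and 0.3). Its signal passed the negative controls' 95th percentile on the 2 TAC arrays only, so the size of these differences is not measured. The other 5, Slc7a5, Slc43a1, Slc43a2, Slc6a19 and the cytosolic transaminase gene Bcat1, lay under that percentile on all 6 arrays. Such signals are called background here. The differences of Bcat1 and Slc6a19 for TAC against normal, 0.41 and -0.21 log2 units, are between background signals.

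Among 13 transcription regulators, Klf15 is known from mice to raise the expression of BCAA breakdown genes in heart. It had log2 signals of 9.17 and 9.73 on the TAC-R arrays, 8.93 and 8.65 on the TAC arrays, and 8.37 and 8.95 on the normal arrays. Both TAC-R arrays lay above the other 4, by 0.66 ± 0.29 log2 units over the TAC mean and by 0.79 ± 0.29 over the normal mean (limma, adjusted p = 0.449 and 0.396). The normal replicate 1 signal lay under the negative controls' 95th percentile of its array, 8.45. Ppargc1a, a coactivator of mitochondrial genes, was level, at 14.53 and 14.42 on the TAC-R arrays, 14.51 and 14.42 on the TAC arrays, and 14.44 and 14.51 on the normal arrays. Tfam, which maintains mitochondrial DNA, differed by -0.62 ± 0.23 for TAC against normal (limma, adjusted p = 0.413). Srebf2, a regulator of sterol synthesis, differed by 0.78 ± 0.26 there and by -0.58 ± 0.26 for TAC-R against TAC, at signals under the negative controls' 95th percentile on all arrays.

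The sister complexes share their design with the BCAA complex, and their 11 measured subunits, kinases and phosphatases had median differences of -0.03 for TAC against normal and 0.02 for TAC-R against TAC. The pyruvate dehydrogenase kinase gene Pdk1 differed by 0.34 ± 0.21 for TAC against normal (adjusted p = 0.602), and Pdk4 by -0.43 ± 0.21 for TAC-R against TAC (limma, adjusted p = 0.501). Pdk3 differed by -0.42 for TAC against normal and by 0.52 for TAC-R against TAC, in background on all arrays. Of the 7 genes for biotin, carboxylases and cobalamin, Pc, the biotin enzyme pyruvate carboxylase, differed by 0.49 ± 0.22 for TAC against normal and by -0.68 ± 0.22 for TAC-R against TAC (limma, adjusted p = 0.499 and 0.309). Acaca, a cytosolic biotin carboxylase, was in background on all arrays, with differences of -0.47 for TAC against normal and 0.72 for TAC-R against TAC.

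Leucine is also a signal, sensed ahead of the growth kinase complex mTORC1, and 15 genes of that system had median differences of 0.08 for TAC against normal and 0.05 for TAC-R against TAC. Lars1, the leucyl-tRNA synthetase, had the largest difference above 0 for TAC against normal, 0.26 ± 0.23, and the arginine sensor gene Castor1 the largest below 0, -0.39 ± 0.25, in background on all arrays (limma, adjusted p = 0.728 and 0.622). Rps6kb1, the S6 kinase downstream of mTORC1, differed by 0.44 ± 0.21 for TAC-R against TAC, and the GTPase gene Rraga by -0.38 ± 0.23 (limma, adjusted p = 0.481 and 0.613).

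The 17 genes of mitochondrial content had a mean log2 signal of 16.65 and 16.71 on the TAC-R arrays, 16.62 and 16.69 on the TAC arrays, and 16.64 and 16.61 on the normal arrays. Their median differences were 0.07 for TAC against normal, -0.03 for TAC-R against TAC and 0.01 for TAC-R against normal. Within the list, Uqcrc1 of respiratory complex III differed by 0.34 ± 0.22 for TAC against normal and the import receptor gene Tomm20 by -0.58 ± 0.23 (limma, adjusted p = 0.61 and 0.453). For TAC-R against TAC, Tomm20 differed by 0.70 ± 0.23 and Mdh2, malate dehydrogenase, by -0.24 ± 0.20 (limma, adjusted p = 0.308 and 0.73).

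**Figure D4:**
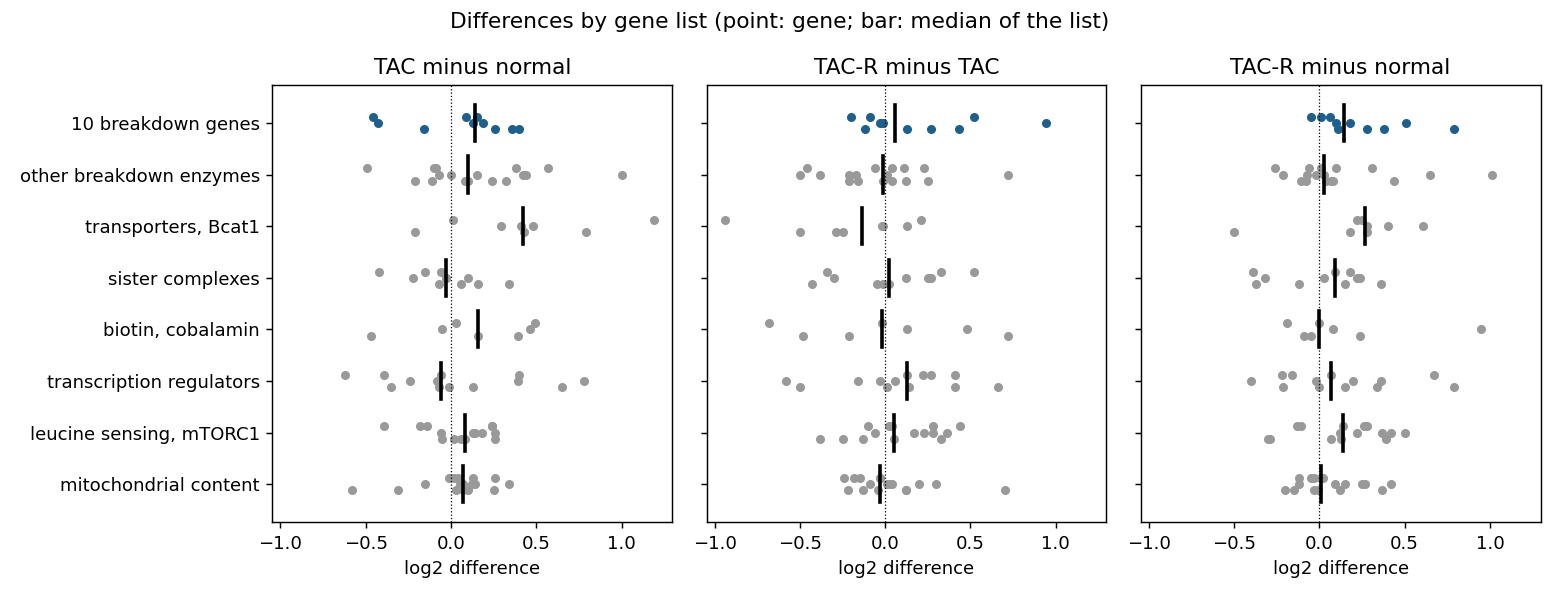
Log2 differences (horizontal axis) of the 10 breakdown genes and of the 7 lists of related genes in the 3 comparisons; points are genes and bars are list medians. The mitochondrial content genes center near 0 in every panel, with medians from -0.03 to 0.07, and Bckdha is the rightmost of the 10 genes in the middle panel at 0.94.

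Some markers of other cells passed between the same groups, whereas no endothelial, macrophage or adipocyte marker passed in any comparison. In bulk tissue, fewer cells of a type and less RNA per cell cannot be told apart. The 6 atrial markers had a mean log2 signal of 9.44 and 7.92 on the TAC-R arrays, 6.35 and 6.38 on the TAC arrays, and 6.66 and 6.84 on the normal arrays. Myl7, the atrial light chain, rose in the TAC-R hearts, at 14.30 and 12.54 on the TAC-R arrays against 7.48 and 7.51 on the TAC arrays (limma, adjusted p = 0.00315). It was the 1 of the 6 that passed for TAC-R against TAC, and without TAC replicate 2 its adjusted p was 0.0501. Nppa differed by 3.71 ± 0.62 and Myl4 by 3.39 ± 0.73 (limma, adjusted p = 0.0527 and 0.126). Sln, in background on all arrays, differed by 1.40 ± 0.53 (limma, adjusted p = 0.385). Myl7 passed the negative controls' 95th percentile on the 2 TAC-R arrays only, and Myl4 on TAC-R replicate 1 only. The sizes of the Myl7 and Myl4 differences are thus not measured. With an intensity trend Nppa and Myl4 passed, at an adjusted p of 0.00283 and 0.0179. Bmp10, also in background, differed by 0.09 ± 0.22 (limma, adjusted p = 0.925). Dkk3 differed by -0.63 ± 0.21, with both TAC-R arrays below both TAC arrays (limma, adjusted p = 0.326). For TAC against normal, Nppa differed by -1.38 ± 0.62, with both TAC arrays below both normal arrays (limma, adjusted p = 0.492). Of the 6 atrial differences there, 3 were above 0 and 3 below. The 9 fibroblast markers had a mean of 10.51 and 10.06 on the TAC-R arrays and 11.57 and 11.45 on the TAC arrays. On the normal arrays their mean was 10.82 and 10.75. All 9 had TAC-R arrays below TAC arrays, against 20.4% of all rows. Of the 9, 2 passed after adjustment, against 0.431% of all rows in either direction. The 8 erythroid markers had a mean of 11.17 and 11.29 on the TAC-R arrays, 12.50 and 12.35 on the TAC arrays, and 10.33 and 10.58 on the normal arrays, and all 8 had TAC arrays above normal arrays, of which 5 passed after adjustment. Of all rows, 21.9% lay wholly above for TAC against normal, and 0.254% passed in either direction. For TAC-R against TAC all 8 erythroid differences were below 0. Of these, 7 lay wholly below, against 20.4% of all rows, and 3 passed, against 0.431%.

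Of the remaining markers, 12 cardiomyocyte genes had a mean of 19.15 and 19.12 on the TAC-R arrays, 18.92 and 18.88 on the TAC arrays, and 19.16 and 19.14 on the normal arrays. Myh7, a myosin heavy chain, differed by -2.10 ± 0.20 for TAC against normal and by 2.10 ± 0.20 for TAC-R against TAC (limma, adjusted p = 0.00627 and 0.00663). It was the 1 of the 12 that passed in each of these comparisons, and was at the limit of the scale on 2 arrays. The 8 smooth muscle and pericyte markers averaged 8.92 and 8.45 on the TAC-R arrays and 9.54 and 9.40 on the TAC arrays. On the normal arrays they averaged 8.75 and 8.74. All 8 had TAC-R arrays below TAC arrays, as the fibroblast markers did, against 20.4% of all rows. For TAC-R against TAC 0 of the 8 passed, against 0.431% of all rows in either direction. Of the 8, 6 passed the negative controls' 95th percentile on each TAC array and 4 on each TAC-R array. On normal replicates 1 and 2, 3 and 4 passed it. Cnn1 and Cspg4 were in background on all arrays. The 12 macrophage markers averaged 6.80 and 6.75 on the TAC-R arrays and 7.12 and 7.24 on the TAC arrays. On the normal arrays they averaged 6.73 and 6.56. These averages rest mostly on background, since 3 of the 12 passed the negative controls on each array, and 2 on normal replicate 2. For TAC-R against TAC, 8 of the 12 lay wholly below and 1 wholly above, against 20.4% and 20.1% of all rows, and 0 passed. The 9 endothelial markers averaged 10.18 and 9.80 on the TAC-R arrays and 10.52 and 10.38 on the TAC arrays. On the normal arrays they averaged 10.39 and 10.46. For TAC-R against TAC, 7 of the 9 lay wholly below and 1 wholly above, against 20.4% and 20.1% of all rows, and 0 passed. Of the 9 adipocyte markers, 2 passed the negative controls on each array, Fabp4 and Cidea, and the defining genes Adipoq, Lep and Ucp1 were in background on all 6. The part of any of these cells in the differences of Bckdha, Bckdk, Mccc2 and Ivd was not tested.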

How the data were processed

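Whole-heart RNA was measured on 6 arrays in 3 groups of 2, with 1 deposited column of values per array. The deposited log2 values were made by the authors with Expression Console, per the labels, as RMA (robust multi-array average) summaries of core exons. No version or setting is named in the sources used here. Because RMA equalises array distributions, a change common to all transcripts is hidden, and the values stop at 19.9315. The deposited row values were still not fully equal between arrays. The negative controls' 95th percentile was 8.45 and 8.55 on the normal arrays. It was 8.22 and 8.12 on the TAC arrays and 8.17 and 8.09 on the TAC-R arrays. Of 24834 rows, 1646 control rows were left out and 23188 tested. A platform table named 15049 of them with 1 symbol, 0 with several, and left 8139 unnamed. The few arrays limit the precision, and no array batch or scan date is given.

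Differences were fitted with limma 3.58.1 in R 4.3.3 on all 6 arrays with 1 mean per group and 3 residual degrees of freedom, with moderation (5.71 prior degrees of freedom, prior SD 0.25). A gene passed when its p, adjusted by Benjamini-Hochberg across the tested rows of a comparison, was under 0.05. The procedure was tested on simulated data. A signal counted as background when it was under the 95th percentile of the 1153 negative control rows of its array. Where a gene had several rows, the brightest was used. All 10 genes are given. From the other lists the text names the genes with the largest difference in each direction in the 2 comparisons that involve TAC arrays, with Klf15, Ppargc1a, Slc25a44, Dld and Bcat1 given in any case. The TAC-R against normal values of Acadsb and Klf15, the genes Hadh and Slc3a2, and the single markers were picked after their values were seen. The members and lists were chosen with earlier results of these data known. Alternatives changed the moderation, scaling, filter, call rule, arrays and replicate block.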

Additional observations from a re-analysis of the deposited data

How the results depend on the processing

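Of 510 values of the 10 genes under 17 alternatives, 486 kept their direction and side of the threshold, 7 passed where the reported fit did not, 0 lost a call and 17 changed sign. Most alternatives changed only the spread, the rows tested or the threshold, and could not alter a difference. Only median centring, quantile normalization and leaving out an array of a compared group could change a sign. Leaving out an array of the third group repeated the fit of only the 2 groups compared. No call could be lost, since the reported fit had 0 among the 10 genes. The 486 is thus not a measure of stability. The number of the 10 genes that passed was 0 for TAC against normal under every alternative run. For TAC-R against TAC it was 1, Bckdha, with an intensity trend, without rows under the negative controls' 95th percentile, without rows under the median of row means and at an unadjusted p under 0.05. For TAC-R against normal it was 1, Bckdk, with an intensity trend and 2 at an unadjusted p under 0.05. It was 0 to 0 in the fits that left out 1 array, in each comparison. Those fits assume that the lone array of a group varies like the others.

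Sign changes were those of small differences. Median centring gave 0.02 for Dbt and 0.01 for Bcat1 (TAC-R minus TAC) and 0.01 for Ppargc1a (TAC minus normal). Quantile normalization gave -0.08 for Slc25a44 (TAC minus normal), -0.01 for Acadsb and -0.02 for Ppargc1a (TAC-R minus TAC), and -0.07 for Ppm1k and -0.04 for Mccc2 (TAC-R minus normal). When 1 array was left out, the TAC minus normal difference ranged from 0.00 to 0.29 for Bckdhb, -0.55 to 0.13 for Slc6a19, -0.23 to 0.26 for Slc25a44, -0.31 to 0.16 for Hibch, -0.16 to 0.42 for Klf15 and -0.06 to 0.03 for Ppargc1a. The TAC-R minus TAC difference then ranged from -0.08 to 0.06 for Dbt, -0.42 to 0.24 for Ppm1k, -0.14 to 0.09 for Mccc1, -0.30 to 0.32 for Acadsb, -0.04 to 0.06 for Ppargc1a, -0.09 to 0.06 for Bcat1 and -0.07 to 0.25 for Bmp10. The TAC-R minus normal difference ranged from -0.20 to 0.10 for Bckdhb, -0.32 to 0.34 for Ppm1k, -0.10 to 0.21 for Mccc2, -0.03 to 0.25 for Hibadh and -0.01 to 0.22 for Mccc1. The cause was not tested.

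Same-numbered arrays did not deviate together, with correlations of -0.04, 0.03 and 0.07 for the 3 comparisons. With 2 arrays per group, that cannot show whether the numbers pair arrays. With the replicate block, 0 of the 10 genes passed in any comparison, with 0, 2 and 2 at an unadjusted p under 0.05. Over all rows, the count of calls was 59 for TAC against normal, from 0 without TAC replicate 2 (2025 before adjustment, at p under 0.05) to 170 with an intensity trend, and 36 with the replicate block. It was 100 for TAC-R against TAC, from 4 without TAC replicate 2 to 344 with a trend and 47 with the block. It was 21 for TAC-R against normal, from 0 without normal replicate 2 (1630 at an unadjusted p under 0.05) to 156 with a trend and 11 with the block. Averaging several rows of a gene was not run, since each of the 10 genes had 1 row.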
